A study of Mus musculus with 12 samples.

Results

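The enzymes of glutathione, thioredoxin and reactive oxygen metabolism were followed across mouse B16 melanoma tumors that had been sorted into tumor cells and the cells around them. Members were all array probes whose platform gene symbol begins with Gst, Gpx, Gcl, Prdx, Txn or Sod and goes on with a digit or letter, together with Gsr, Gss, Nqo1, Hmox1 and Cat. This rule found 71 of the 25697 probes, for 50 of the 8987 named genes. Of these, 64 probes for 48 genes were detected on at least 2 of the 12 arrays and could be tested. Gsta3 and Gsto2 were the genes that fell below this filter. A gene seen in only one kind of sample could pass the filter through that sample alone. Gclc, Gsr and Txnrd1 were not analysed here.

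B16 is a pigmented melanoma line of C57BL/6 origin, and every tumor was grown in C57BL6 mice from 25000 cells injected under the skin of the right flank. F0 cells had no earlier treatment with checkpoint inhibitors (CI) according to the labels, and F4 is the line that the labels describe as having acquired resistance to them. The treatment protocol gives all mice 3 injections of CI with Fvax, a vaccine of B16 cells that make Flt3 ligand, whereas the treatment label of the F0 samples states no earlier or current CI, so the treatment of the F0 group is not settled by the labels. Tumors were taken at 100 to 400 mm3, those of 3 mice were pooled for each replicate, and the cells were sorted by tdTomato fluorescence. Tumor F0 (replicates B2 and B3) and tumor F4 (replicates A to D) are the tdTomato-positive cells, and microenvironment F0 and microenvironment F4 the tdTomato-negative cells of the same pools. The labels used here name neither the promoter of tdTomato, the number of clones in either line, nor the age or sex of the mice.

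Glutathione is a small peptide that cells make from glutamate, cysteine and glycine. Glutathione peroxidases spend it to reduce peroxides, and glutathione transferases couple it to reactive compounds so that these can be exported. Peroxiredoxins also reduce peroxides and are recharged by thioredoxin, which thioredoxin reductases restore at the cost of NADPH. Superoxide dismutases act upstream, on superoxide, and catalase acts on hydrogen peroxide. Many of these genes are targets of the transcription factor NRF2, and melanin synthesis in pigment cells is itself a source of oxidants.

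All values below are log2 signals after background correction and quantile normalization, and a difference is a difference of such values. Each tumor array detected 8995 to 10308 probes and each microenvironment array 6808 to 9387. The 9 melanocyte markers averaged 9.35 to 10.52 on tumor arrays. They averaged 7.67 to 8.85 on 4 microenvironment arrays, but 10.01 on microenvironment F0 B3 and 10.17 on microenvironment F4 D. The 4 pan-leukocyte markers averaged 6.71 to 8.77 on 5 tumor arrays and 11.28 on tumor F4 A, against 11.04 to 12.13 in the microenvironment. These 3 arrays therefore lay towards the other fraction, and results that rest on them are given with and without them. Because fraction markers chose them, leaving them out favours wider differences between the fractions. Without them, the median F4 fraction difference over all probes rose from 0.23 to 0.31. In bulk samples, fewer cells of a type and less RNA per cell cannot be told apart. Each fraction was hybridised on its own chip, so fraction and chip cannot be told apart. F0 samples took the first positions of each chip, so line and position cannot be told apart either.

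The tumor cells and the microenvironment of F4 tumors were compared first. In all, 10 member genes had higher signal in the tumor cells: the transferases Gstm1, Gstm2, Gstm5, Gstm6, Gstp1 and Gstz1, the glutathione synthetase gene Gss, the lipid hydroperoxide reductase gene Gpx4, the thioredoxin gene Txn1 and the splicing factor gene Txnl4a. The Pi-class transferase Gstp3, the peroxidase Gpx2 and the thioredoxin inhibitor Txnip had lower signal. In probes, 16 of 64 were higher (25.0%), where 13.1% of all 11224 tested probes were, and 3 of 64 were lower (4.69%), where 9.99% of all probes were. The median difference of the 48 genes was 0.58, against 0.23 over all probes, and 35 of the 48 lay above 0. The test was limma's moderated test with Benjamini-Hochberg adjustment over all tested probes and a threshold of 0.05.

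The number of higher probes depended on the arrays and the scaling. It was 1 without any one of tumor F4 B, C or D or microenvironment F4 C, 3 without microenvironment F4 B and 5 without microenvironment F4 A. It was 7 without either tumor F0 array, 25 without either microenvironment F0 array and 32 without microenvironment F4 D. The number of lower probes was 1 without any one of tumor F4 B, C or D or microenvironment F4 C. With the mouse pool as a block, 23 probes were higher and 5 lower. The probes of Gstm6 (higher) and Gpx2 (lower) passed in each of these, but each had entered the test through the fraction where it was higher. Median scaling in place of quantile normalization gave 50 higher and 2 lower, but it moved the median of all probes from 0.23 to 1.18 and called 66.6% of all probes higher.

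**Figure D1:**
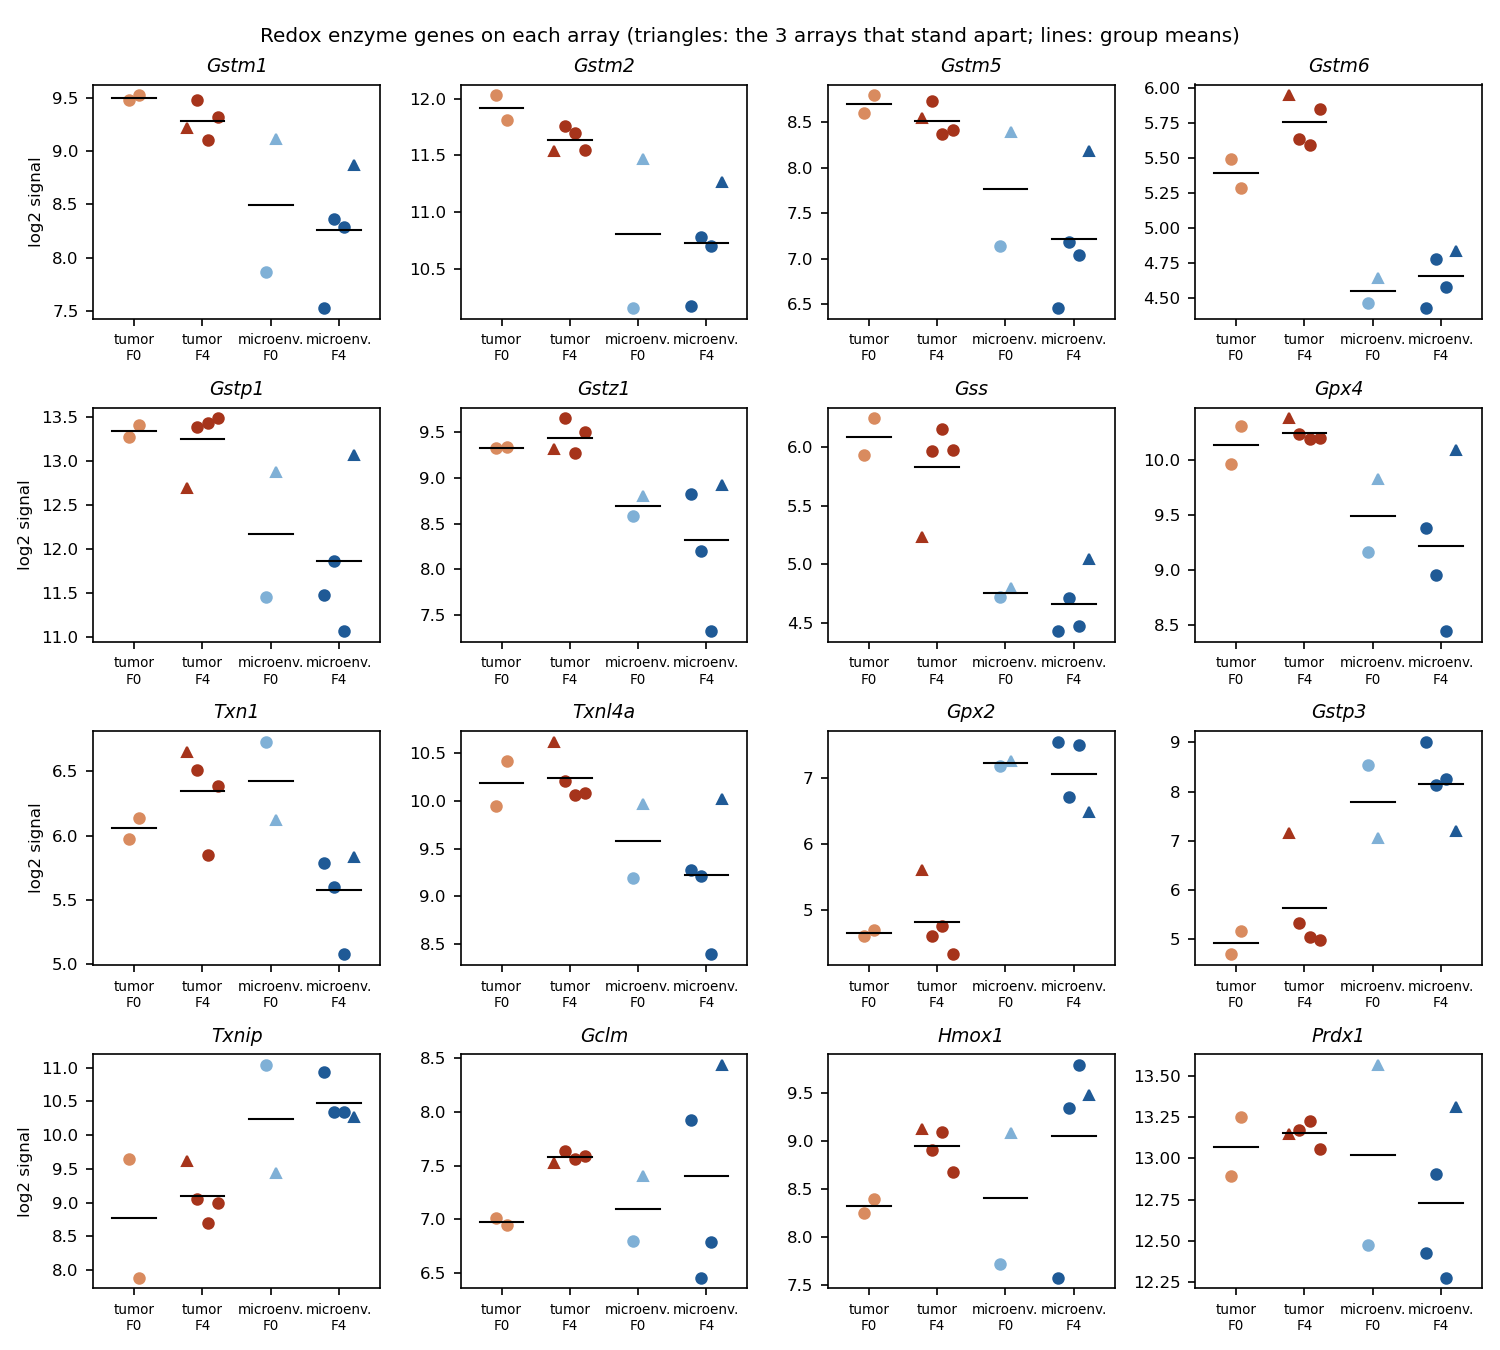
Log2 signal (vertical axes, a separate scale for each gene) of 16 redox enzyme genes on the 12 arrays, in 4 groups. Points are arrays, triangles mark tumor F4 A, microenvironment F0 B3 and microenvironment F4 D, and lines are group means. Gpx2 lies between 6.49 and 7.55 on every microenvironment array and between 4.33 and 5.60 on every tumor array.

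The glutathione transferases made up the largest family, with 18 tested genes, of which 6 were higher in F4 tumor cells, 1 was lower and 11 did not pass. Mu-class enzymes conjugate a broad range of electrophiles. Gstm5 read 8.60 and 8.80 in tumor F0, 8.55, 8.73, 8.37 and 8.41 in tumor F4, 7.14 and 8.39 in microenvironment F0 and 6.46, 7.19, 7.03 and 8.18 in microenvironment F4. The 4 tumor F4 arrays all lay above the 4 microenvironment F4 arrays, and microenvironment F4 D came closest to them. The difference in F4 was 1.30 ± 0.36 (SE), or 2.46-fold (limma adjusted p = 0.0318). Gstm1 differed by 1.02 ± 0.32 (SE) (limma adjusted p = 0.0419) and Gstm2 by 0.91 ± 0.30 (SE) (limma adjusted p = 0.0482), with the same separation of the F4 groups. The other 2 probes of Gstm2 gave 0.88 and 1.11 and did not pass. Gstm6 read 5.49 and 5.29 in tumor F0, 5.95, 5.64, 5.59 and 5.85 in tumor F4, 4.46 and 4.64 in microenvironment F0 and 4.43, 4.78, 4.58 and 4.84 in microenvironment F4. It was detected on all 6 tumor arrays and on none of the 6 microenvironment arrays, all of which read lower. It passed in F4 (limma adjusted p = 0.00877), but its size is not given, since its mean tumor F4 signal was below the mean, over the 4 microenvironment F4 arrays, of the lowest signal detected on each. Mu-class genes are close paralogs, and their probes may share transcripts.

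Gstz1 encodes maleylacetoacetate isomerase, an enzyme of tyrosine breakdown. It read 9.33 and 9.34 in tumor F0, 9.32, 9.65, 9.28 and 9.50 in tumor F4, 8.59 and 8.80 in microenvironment F0 and 8.83, 8.20, 7.32 and 8.93 in microenvironment F4. All tumor arrays exceeded all microenvironment arrays. The F4 difference was 1.12 ± 0.31 (SE), or 2.17-fold (limma adjusted p = 0.033).

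The Pi class split by gene. Gstp1, the principal Pi-class transferase, read 13.27 and 13.40 in tumor F0, 12.70, 13.38, 13.42 and 13.48 in tumor F4, 11.45 and 12.88 in microenvironment F0 and 11.48, 11.86, 11.07 and 13.06 in microenvironment F4. Tumor arrays were high throughout, and among them F4 A was the lowest. Microenvironment F0 B3 and F4 D also read high, so that F4 D lay above tumor F4 A. The F4 difference was 1.38 ± 0.43 (SE), or 2.60-fold (limma adjusted p = 0.0419), and a second probe gave 1.76 (limma adjusted p = 0.0279). Without the 3 arrays the difference was 1.96.

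Gstp2, a near copy of Gstp1, read 12.39 and 12.41 in tumor F0, 11.99, 13.23, 13.10 and 13.18 in tumor F4, 9.26 and 12.10 in microenvironment F0 and 9.82, 11.32, 9.56 and 12.59 in microenvironment F4. The microenvironment arrays spread over a much wider range than the tumor arrays. The F4 difference of 2.05 ± 0.71 (SE) did not pass (limma adjusted p = 0.0557), and it was 2.93 without the 3 arrays.

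Gstp3 ran the other way. It read 4.70 and 5.17 in tumor F0, 7.16, 5.34, 5.05 and 4.98 in tumor F4, 8.53 and 7.05 in microenvironment F0 and 9.01, 8.14, 8.26 and 7.20 in microenvironment F4. Tumor F4 A stood more than a log2 unit above the other tumor arrays and close to microenvironment F0 B3 and F4 D, the lowest of the microenvironment. The F4 difference was -2.52 ± 0.54 (SE) (limma adjusted p = 0.018), with detection on 2 of 4 tumor F4 arrays, so the size rests in part on values below detection. Without the 3 arrays it was -3.35, with tumor F4 C and D below the lowest signal detected on each. In F0 the difference was -2.86 ± 0.76 (SE), which did not pass (limma adjusted p = 0.0808).

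Gstp1, Gstp2 and Gstp3 follow each other in the RefSeq annotation, and since Gstp1 and Gstp3 differed in opposite directions their promoters are shown. These are the 250 bases before each start in RefSeq, assembly GRCm38.p6, on the minus strand, written in the direction of the gene. Gstp1 lies at chr19:4037913-4038162, Gstp2 at chr19:4042222-4042471 and Gstp3 at chr19:4059448-4059697. Capitals mark the letters TGACTCA, searched on both strands, a core bound by AP-1 factors that can lie within antioxidant response elements. They read here as the reverse complement.
Gstp1: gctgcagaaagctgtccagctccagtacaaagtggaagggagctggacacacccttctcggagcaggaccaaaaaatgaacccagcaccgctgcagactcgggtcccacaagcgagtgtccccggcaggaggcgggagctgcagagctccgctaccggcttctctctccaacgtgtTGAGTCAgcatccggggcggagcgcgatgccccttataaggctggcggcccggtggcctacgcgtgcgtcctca
Gstp2: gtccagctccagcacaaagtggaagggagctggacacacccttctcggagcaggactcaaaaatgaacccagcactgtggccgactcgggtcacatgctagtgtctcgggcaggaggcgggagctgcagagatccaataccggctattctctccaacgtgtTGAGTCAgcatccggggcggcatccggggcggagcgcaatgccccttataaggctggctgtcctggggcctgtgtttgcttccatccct
Gstp3: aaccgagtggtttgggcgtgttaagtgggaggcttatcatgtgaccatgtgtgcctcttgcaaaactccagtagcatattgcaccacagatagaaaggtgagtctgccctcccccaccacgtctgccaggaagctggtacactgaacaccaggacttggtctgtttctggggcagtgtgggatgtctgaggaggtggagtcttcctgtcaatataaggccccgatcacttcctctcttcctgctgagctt
The match lies at positions -74 to -68 from the start in Gstp1 and -89 to -83 in Gstp2, and no match was found in the window of Gstp3. Of all 32851 promoters of this length, 4.46% hold these letters. The windows of Gstp1 and Gstp2 align with 207 of 250 bases identical, Gstp1 and Gstp3 with 125, and Gstp2 and Gstp3 with 121. These windows lie before the start, and transcript and probe sequences were not compared. The probes of Gstp1 and Gstp2 may still read each other's transcripts. A match is a description of letters and not a site in use.

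Alpha-class enzymes detoxify products of lipid peroxidation, Gsta4 above all. Gsta1 read 9.52 and 10.09 in tumor F0, 9.26, 10.01, 9.70 and 10.04 in tumor F4, 7.59 and 10.29 in microenvironment F0 and 7.38, 7.95, 6.13 and 9.80 in microenvironment F4. Microenvironment F0 B3 was the highest of all 12 arrays and F4 D reached the tumor range, while the other microenvironment arrays lay well below it. The F4 difference of 1.94 ± 0.72 (SE) did not pass (limma adjusted p = 0.0657), and neither did that of Gsta2, 1.73 ± 0.84 (SE), or Gsta4, 1.79 ± 0.71 (SE). Without the 3 arrays the differences were 2.76, 2.80 and 2.58, a widening that the choice of these arrays favours. Gsta1 and Gsta2 are near-identical paralogs.

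The remaining transferases did not pass. Gsto1, which reduces dehydroascorbate, gave 0.58 ± 0.25 (SE), and Gstm4 and Gstcd were not detected on any microenvironment array. The theta-class gene Gstt3 gave 0.69 ± 0.36 (SE), Gstt2 -0.72 ± 0.36 (SE), and the kappa-class gene Gstk1 -0.52 ± 0.49 (SE). Gstt1 was detected on no tumor array and on 2 of the 6 microenvironment arrays.

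**Figure D2:**
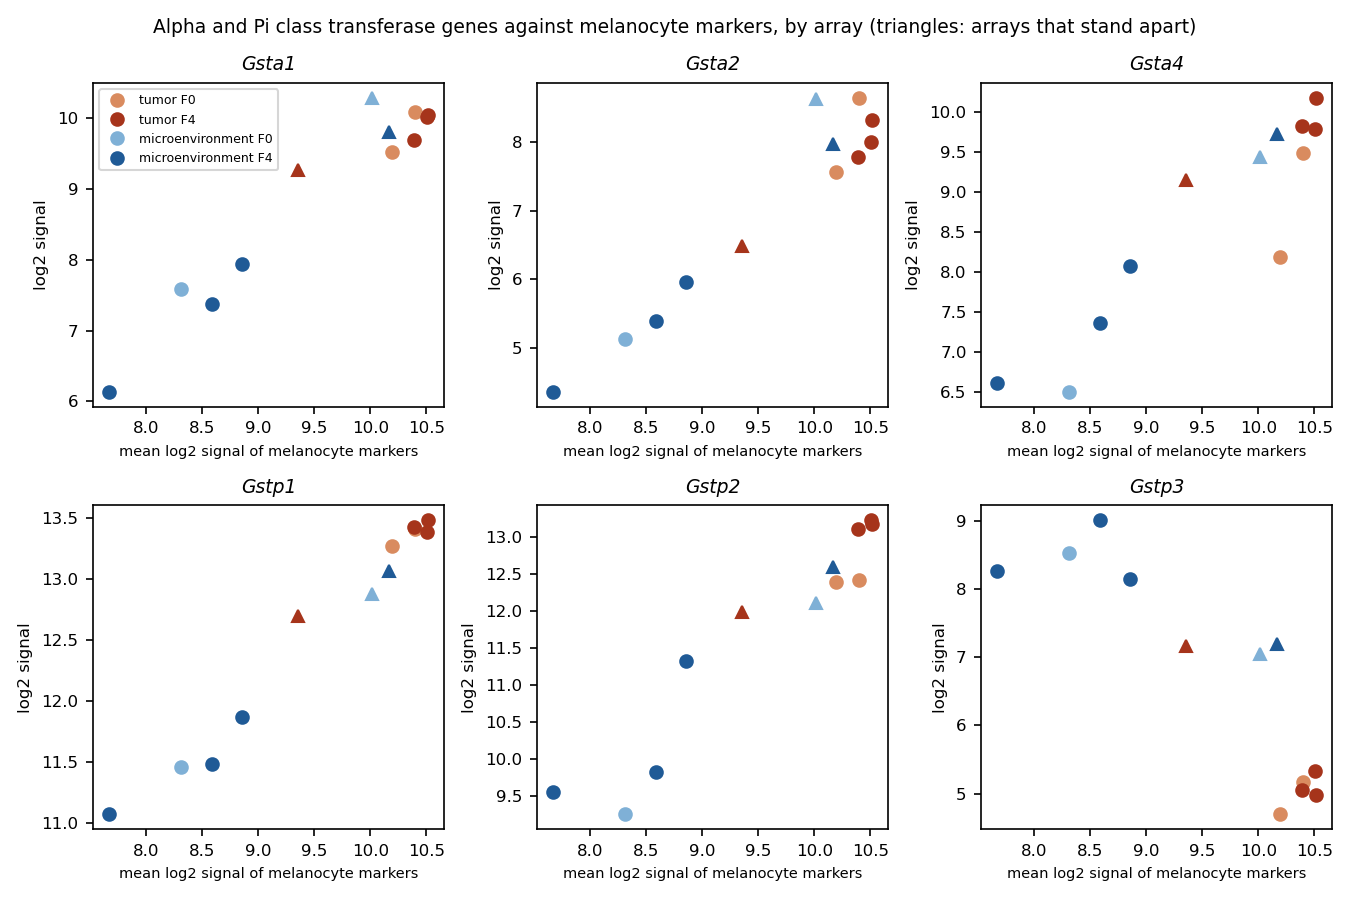
Log2 signal of 6 transferase genes (vertical axes) against the mean log2 signal of the melanocyte markers (horizontal axes) on each of the 12 arrays, coloured by group. Triangles mark the 3 arrays that stand apart. On tumor F4 A, Gstp1 read 12.70 and Gstp3 7.16, between the other tumor arrays and most microenvironment arrays.

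Microenvironment F0 B3 and F4 D were the 2 highest of the 6 microenvironment arrays for 22 of the 48 genes, counted by one probe each (45.8%), against 25% of all probes. This held for 7 of the 10 genes that were higher in tumor cells and for 0 of the 3 that were lower. Both arrays were set apart by melanocyte markers, and the same share among all higher or all lower probes was not computed. These counts are therefore not read as a trait of the members. Tumor F4 A was the highest of the 6 tumor arrays for 14 of the 48 genes (29.2%, against 29.7% of all probes) and the lowest for 16 (33.3%, against 43.8%). The part of melanoma cells in the microenvironment values was not tested. With the 3 arrays left out, which leaves 1 array of microenvironment F0 assumed to vary like the other groups, 26 genes were higher in F4 tumor cells and 3 lower. On the same arrays 36.5% of all probes were higher and 20.1% lower, and the gene median was 0.69 against 0.31 over all probes.

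Glutathione synthesis was represented by Gclm and Gss. Gclm, the modifier subunit of glutamate-cysteine ligase, which catalyses the rate-limiting step, read 7.01 and 6.94 in tumor F0, 7.53, 7.63, 7.56 and 7.59 in tumor F4, 6.80 and 7.41 in microenvironment F0 and 7.92, 6.46, 6.79 and 8.44 in microenvironment F4. The tumor F4 values lay within the spread of the microenvironment F4 arrays, of which A and D were high and B and C low. The difference of 0.18 ± 0.38 (SE) did not pass, with a 95% interval of -0.66 to 1.01. Gss, which adds glycine in the last step, read 5.93 and 6.24 in tumor F0, 5.24, 5.96, 6.15 and 5.97 in tumor F4, 4.72 and 4.79 in microenvironment F0 and 4.43, 4.71, 4.47 and 5.05 in microenvironment F4. It was detected on 5 of 6 tumor arrays and on no microenvironment array. The probe passed in F4 (limma adjusted p = 0.0166), but its size is not given for the reason stated for Gstm6. The other 2 Gss probes were not detected on any microenvironment array either and did not pass.

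The 6 glutathione peroxidases divided, with 1 higher, 1 lower and 4 not passing. Gpx2, a selenoenzyme best known from the gut lining, read 4.61 and 4.70 in tumor F0, 5.60, 4.61, 4.75 and 4.33 in tumor F4, 7.18 and 7.26 in microenvironment F0 and 7.55, 6.71, 7.50 and 6.49 in microenvironment F4. Microenvironment and tumor arrays did not overlap in either line. In F4 the difference was -2.24 ± 0.32 (SE) (limma adjusted p = 0.00589). It was detected on 1 of 4 tumor F4 arrays, so this size rests mostly on tumor values below detection. In F0 it was not detected in tumor cells and was at least 4.15-fold lower there (limma adjusted p = 0.0288). Gpx2 was the only member gene to pass in F0 and had the smallest adjusted p of the 48 genes in both lines. It remained past the threshold in F4 under all 21 alternatives, as did Gstm6. Each of these 2 genes passed the detection filter through the fraction where it was higher. Their results therefore set signal against values mostly or wholly below detection, and their stability adds no support.

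Gpx4 reduces lipid hydroperoxides within membranes and protects cells from ferroptosis. It read 9.96 and 10.31 in tumor F0, 10.38, 10.24, 10.19 and 10.19 in tumor F4, 9.16 and 9.82 in microenvironment F0 and 9.38, 8.95, 8.44 and 10.09 in microenvironment F4. The tumor F4 arrays were tightly grouped and all above the microenvironment F4 arrays, of which D came closest. The F4 difference was 1.03 ± 0.31 (SE), or 2.05-fold (limma adjusted p = 0.0407), while a second probe, detected on no microenvironment array, did not pass (limma adjusted p = 0.141). Gpx1, the abundant cytosolic peroxidase, read 12.76 and 12.59 in tumor F0, 12.81, 12.75, 12.98 and 12.73 in tumor F4, 12.73 and 13.10 in microenvironment F0 and 13.36, 13.12, 12.72 and 13.60 in microenvironment F4. Its groups overlapped in F4, and the difference of -0.38 ± 0.21 (SE) did not pass (limma adjusted p = 0.179). Gpx3, a secreted form, gave -1.93 ± 0.86 (SE) with microenvironment F4 values from 7.43 to 10.70. The endoplasmic reticulum forms Gpx7 and Gpx8 gave -0.89 and 0.76, and none of these passed.

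In the thioredoxin system, Txn1 was higher and its inhibitor Txnip lower in F4 tumor cells after quantile normalization, the latter difference being near 0 under median scaling. Txn1, the cytosolic thioredoxin, read 5.98 and 6.14 in tumor F0, 6.65, 6.51, 5.85 and 6.39 in tumor F4, 6.73 and 6.12 in microenvironment F0 and 5.78, 5.60, 5.07 and 5.83 in microenvironment F4. In F4 all tumor arrays lay above all microenvironment arrays, whereas in F0 the microenvironment overlapped with the tumor cells. The F4 difference was 0.78 ± 0.25 (SE), or 1.71-fold (limma adjusted p = 0.0459). Txn1 was detected on 2 of 4 microenvironment F4 arrays, so this size rests in part on values below detection. Txnip binds thioredoxin and restrains glucose uptake, and it read 9.65 and 7.89 in tumor F0, 9.62, 9.06, 8.70 and 8.99 in tumor F4, 11.04 and 9.44 in microenvironment F0 and 10.94, 10.34, 10.35 and 10.27 in microenvironment F4. The 4 microenvironment F4 arrays lay above the 4 tumor F4 arrays. The difference was -1.38 ± 0.42 (SE), or 2.61-fold lower in tumor cells (limma adjusted p = 0.0409), but 0.05 under median scaling, where the median of all probes was 1.18. The mitochondrial forms Txn2 and Txnrd2 gave 1.19 ± 0.54 (SE) and 0.76 ± 0.29 (SE) and did not pass, although a second Txnrd2 probe gave 0.85 (limma adjusted p = 0.0340). Txnrd3, a reductase best known from testis, gave 1.35 ± 0.45 (SE) (limma adjusted p = 0.0503), and 1.90 without the 3 arrays.

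Of the 7 genes with thioredoxin-like domains, 1 passed. Txnl4a, a subunit of the spliceosome with a thioredoxin fold, read 9.95 and 10.42 in tumor F0, 10.62, 10.21, 10.06 and 10.09 in tumor F4, 9.19 and 9.97 in microenvironment F0 and 9.28, 9.21, 8.39 and 10.02 in microenvironment F4. The F4 groups did not overlap, with microenvironment D close to the tumor arrays. The difference was 1.02 ± 0.33 (SE) (limma adjusted p = 0.0453), and its other 3 probes gave 0.08, 0.66 and 1.01, of which the last passed (limma adjusted p = 0.0402). The other 6 genes ranged from -0.13 for Txndc15 to 0.58 for Txndc12, an oxidoreductase of the endoplasmic reticulum.

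All 4 peroxiredoxin genes had positive differences, and none passed on its brightest probe. Prdx1, the abundant cytosolic form, read 12.89 and 13.25 in tumor F0, 13.15, 13.18, 13.23 and 13.06 in tumor F4, 12.47 and 13.57 in microenvironment F0 and 12.43, 12.90, 12.28 and 13.31 in microenvironment F4. Microenvironment F0 B3 and F4 D were the 2 highest of all 12 arrays. The F4 difference of 0.42 ± 0.28 (SE) did not pass, with a 95% interval of -0.20 to 1.05, and without the 3 arrays it was 0.62. Prdx2 gave 0.84 ± 0.28 (SE) (limma adjusted p = 0.0524), but its other 2 probes gave 1.37 (limma adjusted p = 0.0387) and at least 1.07-fold (limma adjusted p = 0.0180). The mitochondrial Prdx3 gave 0.69 ± 0.28 (SE) and Prdx4 of the endoplasmic reticulum 0.82 ± 0.30 (SE).

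None of the 4 superoxide dismutase and catalase genes passed. Sod1, the cytosolic dismutase, read 11.75 and 11.55 in tumor F0, 11.93, 11.61, 11.50 and 11.64 in tumor F4, 11.50 and 11.52 in microenvironment F0 and 11.03, 11.22, 10.92 and 11.44 in microenvironment F4. The F4 groups did not overlap, and the difference was 0.52 ± 0.18 (SE) (limma adjusted p = 0.0593). Sod2, the mitochondrial dismutase, read 10.45 and 10.59 in tumor F0, 11.19, 10.93, 10.62 and 10.61 in tumor F4, 10.68 and 10.83 in microenvironment F0 and 10.19, 10.85, 11.33 and 10.86 in microenvironment F4. Its groups overlapped fully, with a difference of 0.03 ± 0.25 (SE) and a 95% interval of -0.51 to 0.57. Cat, encoding catalase, read 5.41 and 5.85 in tumor F0, 5.20, 5.88, 5.63 and 6.02 in tumor F4, 5.08 and 5.06 in microenvironment F0 and 6.81, 5.15, 5.06 and 6.01 in microenvironment F4. The groups overlapped in F4, with a difference of -0.08 ± 0.36 (SE). Extracellular Sod3 was detected on 2 of the 12 arrays.

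Hmox1 breaks down heme and Nqo1 reduces quinones, and both are classical NRF2 targets. Hmox1 read 8.25 and 8.40 in tumor F0, 9.12, 8.91, 9.09 and 8.67 in tumor F4, 7.72 and 9.08 in microenvironment F0 and 7.58, 9.34, 9.79 and 9.48 in microenvironment F4. Microenvironment F4 A was the lowest of all arrays and C the highest, so the tumor values lay inside the microenvironment range. The difference was -0.10 ± 0.45 (SE) (limma adjusted p = 0.873). Nqo1 read 5.29 and 5.65 in tumor F0, 5.25, 5.37, 5.65 and 5.88 in tumor F4, 4.79 and 5.61 in microenvironment F0 and 4.93, 5.24, 4.91 and 5.33 in microenvironment F4. It was detected on 5 of 6 tumor arrays and on no microenvironment array, did not pass (limma adjusted p = 0.164) and has no size here.

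**Figure D3:**
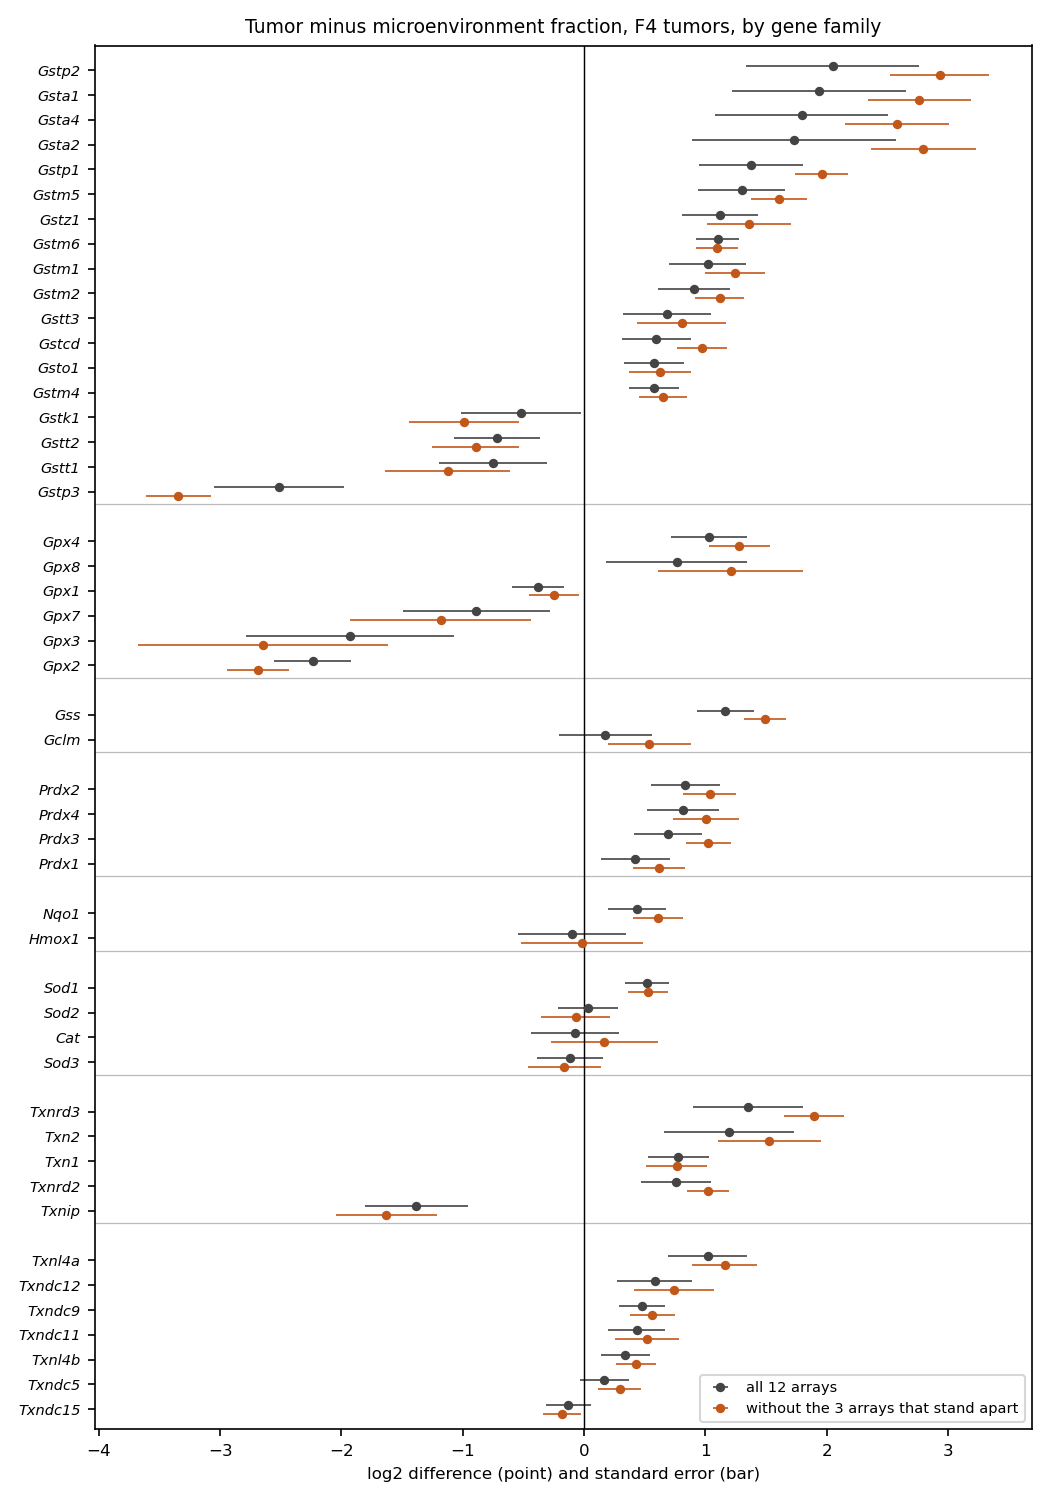
Difference in log2 signal between tumor cells and microenvironment of F4 tumors (horizontal axis) for the 48 tested genes, in family blocks. Points are fitted differences and bars their standard errors, in grey for all 12 arrays and in orange without the 3 arrays that stand apart. Gstp3 moves from -2.52 to -3.35 and Gstp2 from 2.05 to 2.93. Both Gstp3 sizes rest in part on tumor values below detection.

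In F0 tumors the same comparison rested on 2 arrays a group and called 0 member probes higher (0.294% of all probes) and 1 lower (0.624%), that of Gpx2. The gene median was 0.48 against 0.24 over all probes. The number of lower probes was 0 without either tumor F0 array, without microenvironment F0 B2 or without tumor F4 B or C, and 2 without tumor F4 A or microenvironment F0 B3. The number of higher probes was 2 without tumor F4 A and 4 without microenvironment F0 B3. With the mouse pool as a block 1 probe was higher and 3 lower. A fit without an F0 array has 1 array in that group, whose spread was then assumed to match the other groups. Without the 3 arrays, among them microenvironment F0 B3, the gene median was 0.66 against 0.30 over all probes.

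The second question was how F4 cells, the line with acquired resistance, differed from F0 cells. In the tumor fraction 0 of the 64 member probes passed in either direction. Over all probes, 1 was higher (0.00891%) and 7 were lower (0.0624%). No member gene reached an unadjusted p of 0.05, which 1.84% of all probes did. The median difference of the 48 genes was 0.09 against -0.03 over all probes. Leaving out the 3 arrays also called 0 genes. Over all tested probes, the unadjusted 95% interval of this difference reached a median of 0.77 to either side. Intervals were wider for some members, such as -0.42 to 1.62 for Gclm and -0.58 to 1.82 for Hmox1. A call after adjustment over all probes asks for more than this interval, so the 0 calls do not exclude differences of this size or larger.

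The smallest p among the members belonged to Gstm6, with tumor values of 5.49 and 5.29 in F0 and 5.95, 5.64, 5.59 and 5.85 in F4. All 4 F4 arrays exceeded the 2 F0 arrays, and the difference was 0.37 ± 0.22 (SE). A second Gstm6 probe gave -0.04, and its F4 and F0 values overlapped. Gclm was the next. Its F4 values of 7.53, 7.63, 7.56 and 7.59 lay close together and above both F0 values of 7.01 and 6.94, with a difference of 0.60 ± 0.47 (SE). Hmox1 followed the same pattern, from 8.25 and 8.40 in F0 to 9.12, 8.91, 9.09 and 8.67 in F4, a difference of 0.62 ± 0.55 (SE). With the tumor arrays alone the limma adjusted p was 0.592 for Gclm and 0.987 for Hmox1. Gstm4 was not detected in F0 tumor cells and at least 1.10-fold higher in F4. Gstt3 was lower in every F4 array, with 7.65 and 7.81 in F0 and 7.08, 7.39, 7.13 and 7.36 in F4, a difference of -0.49 ± 0.44 (SE). None of the 5 passed, and the smallest limma adjusted p of any member was 1.0.

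Without a test, 7 of the 64 member probes had all 4 tumor F4 arrays above both F0 arrays (10.9%, against 5.2% of all probes). They were probes of Gstm4, Gstm6, Gstt1, Gclm, Prdx2, Hmox1 and Sod2. The other tested probes of Gstm6 and Prdx2 overlapped between the lines. Gstt1 was detected on no tumor array, so its order is one among signals below detection. The opposite order held for 4 of the 64 (6.25%, against 8.29% of all probes), which were 2 probes of Gstm2, 1 of Gstt3 and 1 of Gss. Gss differed by -0.26 ± 0.29 (SE), Gpx4 by 0.11 ± 0.39 (SE), Prdx1 by 0.08 ± 0.35 (SE), Txnip by 0.32 ± 0.52 (SE) and Nqo1 by 0.07 ± 0.29 (SE) between the lines in tumor cells. Gstp3 differed by 0.70 ± 0.66 (SE), and the value of tumor F4 A stood apart, as given above.

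Gclm and Prdx1 show what the motif search found outside the Pi class. The windows are again the 250 bases before the RefSeq start in GRCm38.p6, on the plus strand, Gclm at chr3:122245307-122245556 and Prdx1 at chr4:116685349-116685598. Capitals mark the letters TGACNNNGC, searched on both strands, the core of the antioxidant response element through which NRF2 acts. They read here as the reverse complement.
Gclm: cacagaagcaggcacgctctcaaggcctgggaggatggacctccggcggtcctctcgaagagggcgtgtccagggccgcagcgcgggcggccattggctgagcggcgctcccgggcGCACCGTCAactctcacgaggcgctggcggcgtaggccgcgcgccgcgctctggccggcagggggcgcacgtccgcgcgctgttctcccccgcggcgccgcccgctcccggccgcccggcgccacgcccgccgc
Prdx1: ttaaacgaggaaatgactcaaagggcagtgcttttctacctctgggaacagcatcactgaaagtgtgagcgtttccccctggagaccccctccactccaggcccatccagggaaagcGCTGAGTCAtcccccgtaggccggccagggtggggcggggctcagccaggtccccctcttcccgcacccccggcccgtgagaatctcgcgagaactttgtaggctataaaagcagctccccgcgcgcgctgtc
The match lies at positions -134 to -126 from the start in Gclm and -133 to -125 in Prdx1, where it overlaps the letters TGACTCA. Gsta4, Gstt2, Hmox1, Sod3 and Txnl4a had no RefSeq promoter here and were not searched. The 45 member genes with a RefSeq promoter had 59 promoters, and 7 genes hold TGACNNNGC in any of theirs: Gclm, Gsta3, Gstm5, Prdx1, Sod1, Txndc11 and Txndc5. Of all promoters of this length, 10.2% hold it, a share by promoter that cannot be set directly against a count by gene. TGACTCA was found in 4 of the 45 genes, Gstm5, Gstp1, Gstp2 and Prdx1, again counted by gene. No tested member of either set passed between the lines, and Gsta3 was not tested.

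In the microenvironment, 0 member probes passed between F4 and F0, and 0% of all probes did in either direction. Txn1 had the smallest p and was the one member gene with an unadjusted p under 0.05, which 2.72% of all probes had. Its values were 6.73 and 6.12 in F0 and 5.78, 5.60, 5.07 and 5.83 in F4, every F4 array below both F0 arrays. The difference was -0.86 ± 0.31 (SE) (limma adjusted p = 0.999). It was detected on both F0 arrays and on 2 of the 4 F4 arrays. The only other gene without overlap was Sod1, which differed by -0.36 ± 0.23 (SE) and did not pass. These 2 probes are 3.12% of the 64, where 2.85% of all probes were lower without overlap, and 0 were higher without overlap, where 2.8% of all probes were. Cat and Gpx7 were not detected in microenvironment F0 and their sizes are not given. Sod3 was detected on 1 microenvironment array. Gclm (0.30 ± 0.47 (SE)), Hmox1 (0.64 ± 0.55 (SE)), Gpx4 (-0.28 ± 0.39 (SE)) and Gstp1 (-0.30 ± 0.52 (SE)) did not pass.

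Whether the line effect differed between the fractions was tested directly, and 0 member probes passed (0% of all probes in either direction). Txn1 had the smallest p and was the 1 member gene with an unadjusted p under 0.05, as were 1.43% of all probes. Its F4 against F0 difference was 0.29 ± 0.31 (SE) in tumor cells and -0.86 in the microenvironment, and these differed by 1.15 ± 0.43 (SE) (limma adjusted p = 1.0). For Hmox1 the differences were 0.62 and 0.64, and for Gclm 0.60 and 0.30.

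**Figure D4:**
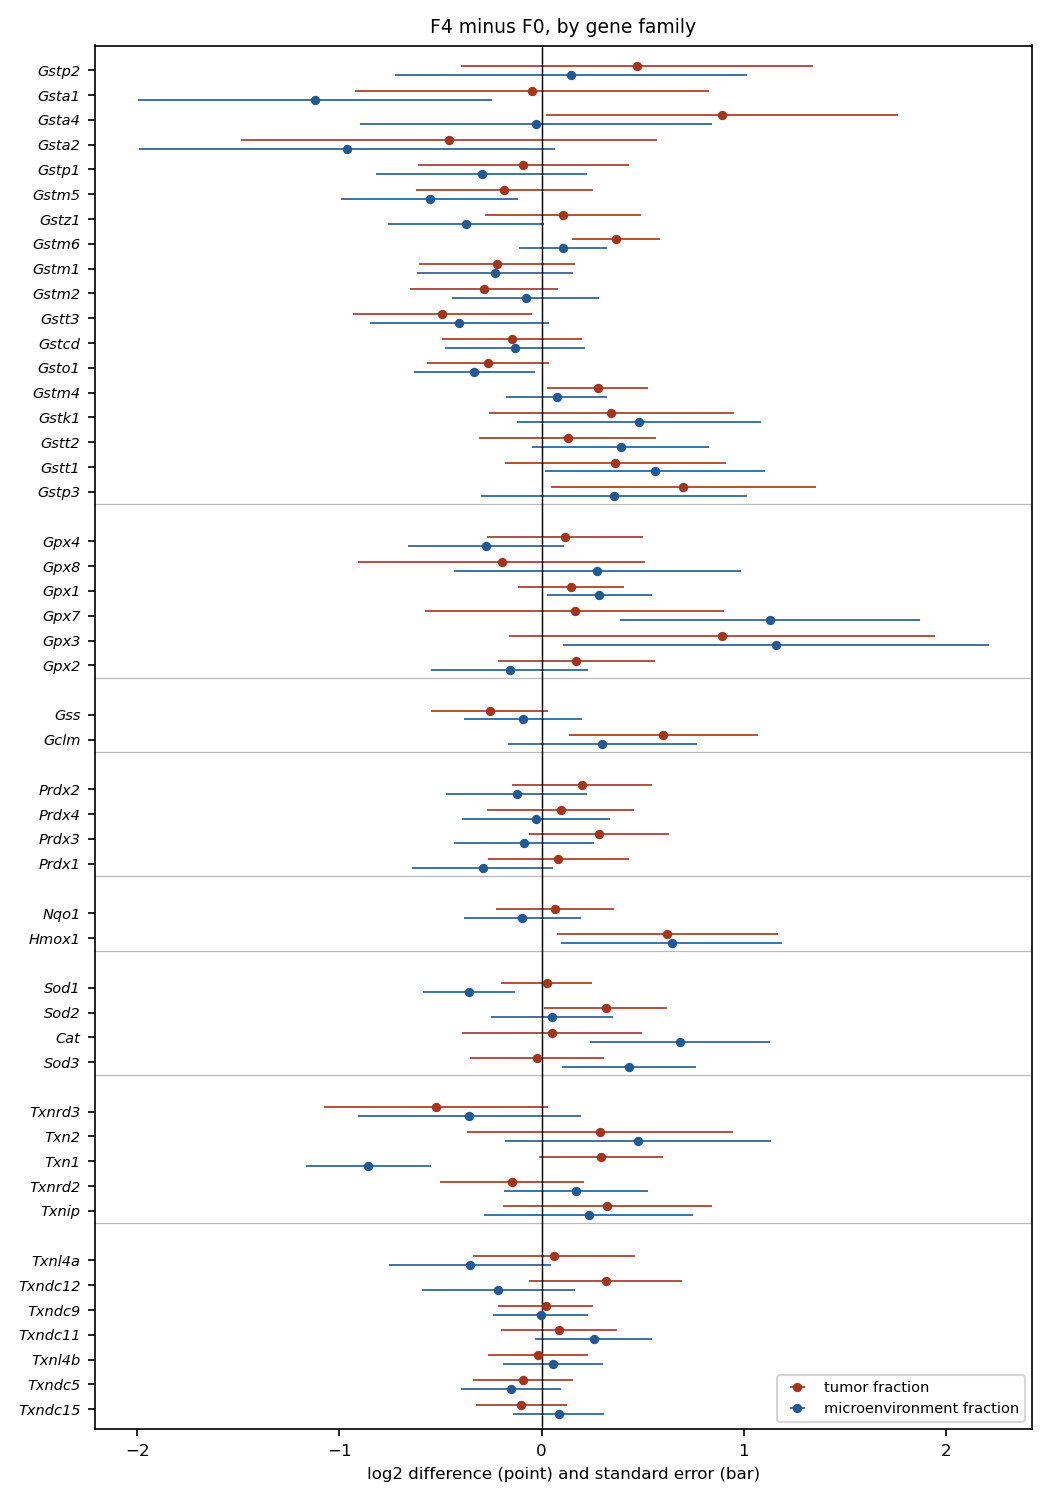
Difference in log2 signal between F4 and F0 (horizontal axis) for the 48 tested genes in family blocks, in red for tumor cells and in blue for the microenvironment. Points are fitted differences and bars their standard errors. None passed the test, and Txn1, at -0.86 in the microenvironment, had the smallest p in that fraction.

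The pathways that feed these enzymes were read from 8 gene lists, whose F4 counts stand beside 13.1% of all probes higher, 9.99% lower and a median of 0.23. In the supply of glutathione and its precursors, 1 of 6 measured genes was higher in F4 tumor cells and 0 lower, with a median of 0.03. The gene was Chac1, which breaks glutathione down (1.75 ± 0.55 (SE), limma adjusted p = 0.0444). Ggt7 gave 1.70 ± 0.56 (SE) and did not pass (limma adjusted p = 0.0501).

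Among 10 genes of the list for NADPH supply 2 were higher and 0 lower, with a median of 0.83, and membership of the list does not show which cofactor an enzyme uses. They were the mitochondrial enzymes Mthfd2 (1.40 ± 0.41 (SE), limma adjusted p = 0.038) and Me2 (0.85 ± 0.26 (SE), limma adjusted p = 0.0418). Over all probes 13.1% were higher and 9.99% lower, with a median of 0.23. Of 17 NRF2 regulators and targets 3 were higher and 0 lower, with a median of 0.51. The 2 with the smallest p were the aldo-keto reductase Akr1b8 (2.10 ± 0.60 (SE), limma adjusted p = 0.0353) and the carbonyl reductase Cbr3 (1.23 ± 0.39 (SE), limma adjusted p = 0.0444). Slc48a1, a heme transporter, was the third.

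Of 6 glutaredoxins and methionine sulfoxide reductases, Glrx was lower in tumor cells (-1.40 ± 0.38 (SE), limma adjusted p = 0.0311) and Glrx3 higher (limma adjusted p = 0.0341), the latter not detected in the microenvironment. Among 6 genes of the microsomal transferase list, Mgst2 was lower (-1.52 ± 0.37 (SE), limma adjusted p = 0.0241) and the prostaglandin D synthase Hpgds higher (1.71 ± 0.49 (SE), limma adjusted p = 0.034). In the list for selenoprotein synthesis, which also holds selenoproteins, 1 gene of 8 was higher and 0 were lower. It was Selenow, itself a selenoprotein (0.80 ± 0.26 (SE), limma adjusted p = 0.0474). None of 9 protein disulfide isomerase genes passed, and Pdia4 had the smallest p (0.88 ± 0.31 (SE), limma adjusted p = 0.0568). Of 4 genes of the phagocyte NADPH oxidase, Rac2 (-3.52 ± 0.83 (SE), limma adjusted p = 0.0215) and Ncf4 (-3.42 ± 0.87 (SE), limma adjusted p = 0.0257) were lower in tumor cells. Leukocyte markers were lower there too, as given above, and their part in this was not tested. Between F4 and F0, 0 genes of these lists passed in either fraction.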

How the data were processed

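Per the file headers, the deposited table gives for each probe and array a linear intensity without normalization and a detection p-value; both came from GenomeStudio, per the submitters' processing notes, whose version is not given in the sources used here. A second deposited table of processed intensity values for 12824 probes served as an alternative, since its normalization is not stated. Per the labels' protocols, 300 ng of RNA was amplified by Eberwine labelling.

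Background correction (normexp, with an offset of 16) and quantile normalization of all 12 arrays used neqc of limma 3.58.1 in R 4.3.3, which gives log2 values. A probe was tested where 2 or more arrays had a detection p under 0.01 (11224 of 25697). One model with 4 group means was fitted to all arrays (8 residual and 3.4 prior degrees of freedom), with Benjamini-Hochberg adjustment over all kept probes and a threshold of 0.05. Quantile normalization gives both fractions one distribution although they differ in detected probes. The number of arrays limits the precision, since depth has no meaning for arrays.

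The platform annotation gave 1 gene symbol for 12096 probes, several for 0 and none here for 13601. By Entrez identifier, 12090 matched RefSeq GRCm38.p6. The brightest probe by mean over all arrays stood for a gene, and other probes are named where they disagree. A gene undetected on a whole group has only a bound there: the fold is the brighter mean over, per array, the higher of the lowest detected signal and the gene's own, and none is given where this is below 1.

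Both fractions of a replicate came from the same pool of mice, per the labels, so replicate labels pair them. Residuals of paired arrays correlated at 0.140, 0.117, -0.0875 and 0.556 for F4 A to D. In F0 the correlation was 0.392, a single value for both pools, since residuals of 2 arrays a group mirror each other. Whether pools came from separate experiments is not stated. The members, the 8 pathway lists, the marker lists and the 3 arrays set apart were chosen with earlier results of these data known. Named genes were a fixed core of enzymes, the 5 members with the smallest p between the lines, and up to 3 genes of each list. Between fractions the plan set the 8 largest passing differences each way, and passing genes beyond these were added. Other members were described beside them. Alternatives were other scaling, filters, offsets, array weights, blocks and omitted arrays. The model fit alone was tested on simulated log2 values with known changes. Background correction, normalization, the detection filter and the pairing were not part of that test.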

Additional observations from a re-analysis of the deposited data

Results flagged for a closer look

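In the groups of 4 arrays, the named genes were checked for an array far from the other 3, by the gap to its nearest neighbour over the range of the group (Dixon's test at its 95% critical value). Of 50 gene and group combinations 3 stood out, where chance gives about 1 in 20. Gstp1 was lowest on tumor F4 A, at 12.70 against 13.38 to 13.48 on the others. Gstp3 was highest on the same array, at 7.16 against 4.98 to 5.34. The same array carried pan-leukocyte markers at 11.28, against 6.71 to 8.77 on the other tumor arrays, and their part in these values was not tested. Txnip was highest on microenvironment F4 A, at 10.94 against 10.27 to 10.35.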

How the results depend on the processing

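The count of member probes between F4 and F0, and for the difference of these effects between fractions, was 0 in every alternative that could be run (22 in each fraction, 21 for the difference). For tumor cells against microenvironment in F4, 16 probes higher became 50 with median scaling, 5 without a filter, 46 with array weights, 10 with the deposited processed values and 40 without the 3 arrays that stand apart, and 1 to 32 when each array was left out in turn. The 3 lower became 8 with array weights, 5 with the replicate block, and 1 to 3 when each array was left out. In F0, 0 higher became 41 with median scaling, 22 without the 3 arrays, 1 with the replicate block and 0 to 4 with each array left out; 1 lower became 2 with median scaling, 0 with an offset of 50, 2 with array weights, 3 without the 3 arrays, 3 with the replicate block and 0 to 2 with each array left out. The cause was not tested. Leaving out the 3 arrays, or any F0 array, leaves 1 array in a group of the F0 comparison. The counts of those fits rest on spread shared with the other groups. Median scaling moved the median of all probes in F0 from 0.24 to 1.64, and between the lines to -0.25 in tumor cells and 0.14 in the microenvironment. The replicate block changed no other count by over 1.5 times.

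Single F4 fraction differences changed sign with median scaling (Txnip 0.0506, Gpx1 0.64, Cat 0.71, Hmox1 1.29), with array weights (Sod2 -0.12, Cat 0.53) and without the 3 arrays (Sod2 -0.0697, Cat 0.17). With each array left out in turn, Sod2 ranged from -0.17 to 0.20, Cat ranged from -0.31 to 0.28, Gclm ranged from -0.14 to 0.52 and Hmox1 ranged from -0.59 to 0.15. Gpx2 and Gstm6 passed in all 21 alternatives, Gss and Gstp3 in 17, Gstz1 in 15, Gstm5 in 14, Txnip and Gpx4 in 12, Gstp1, Gstm1 and Gstm2 in 11, Txnl4a in 10 and Txn1 in 9. For Gpx2, Gstm6 and Gss these counts rest on values mostly or wholly below detection in the fraction where they were lower. The counts of Gstp3 and Txn1 rest on such values in part. A block for the chip could not be fitted. Signal near background limits Gss, Gstm6, Gstm4, Nqo1, Txn1 and Sod3, whose detection differed between arrays.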

Other observations

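Probes of one gene did not always give the same size. In the F4 fraction comparison, the 4 Txnl4a probes spanned 0.08 to 1.02. The 3 Gpx8 probes gave 0.76, 0.80 and 0.95, and the 3 Gstm2 probes 0.88 to 1.11. All of these probes were detected in both fractions.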
